A study of Rattus norvegicus with 22 samples.

Results

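The genes described here are 9 apolipoprotein genes, Apoa1, Apoa2, Apoa4, Apoa5, Apob, Apoc1, Apoc2, Apoc3 and Apoe, together with Mttp, in the liver of rats kept on 2 diets. They were found by their gene names on the array, which gave 10 of the 26276 names present, with 1 probe for each. Apolipoproteins are the protein part of lipoprotein particles, in which the liver sends triglyceride and cholesterol into blood. Mttp encodes the large subunit of microsomal triglyceride transfer protein, which loads lipid onto apolipoprotein B in the endoplasmic reticulum, the first step in making very low density lipoprotein (VLDL). The other apolipoproteins act as activators or inhibitors of plasma lipases, as ligands of hepatic receptors, or as the scaffold of high density lipoprotein (HDL).

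Liver RNA of 22 male Sprague–Dawley rats was hybridised to two-colour Agilent arrays, 1 array per rat. CD 3 and CD 14 were rats on a semi-synthetic control diet with lard for 3 and 14 months (5 and 6 rats). BD 3 and BD 14 were rats on BASE-diet for the same times (5 and 6 rats), in which 6% salmon fat took the place of most of the lard. Added together with it were 8% linden extract, 8% pumpkin puree, 1% probiotic bacteria (Lactobacillus acidophilus LA-5 and a Bifidobacterium) and more rapeseed oil. These components cannot be told apart. The listed composition of the diets gives a smaller share of probiotic than 1%. The rats at 3 and at 14 months were different animals. On every array the labels give the rat's RNA as Cy5 and a common reference, liver RNA of healthy 10-week-old rats outside the experiment, as Cy3, while the methods name the dyes differently; the labels were followed. The dyes were not swapped, so a ratio above or below the reference is open to dye bias, while differences between groups share it.

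Values are log2 ratios of rat over reference, in which 0 is the level of the reference. As the measure of depth on an array, 52.4% to 93.6% of its spots had a Cy5 signal well over background. All 10 genes were well above background in both channels on 22 of 22 arrays, and no spot was saturated. All 10 hepatocyte markers examined were above background on all 22 arrays, and of 7 small intestine markers 3 (Fabp2, Lct and Alpi) were above it on all 22 and the other 4 on at most 7. The array of CD 3 replicate 4 stood apart: it had the lowest share above background (52.4%) and gave the lowest value of its group for 7 of the 10 genes. The arrays of CD 3 replicate 1 and CD 14 replicate 1 held 4.44% and 4.05% non-uniform spots, and no other array held over 1%. Where a difference of these genes turned its sign or fell away without CD 3 replicate 4, the value without it is given too.

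Each gene was read by a probe of 60 bases, placed by the array's annotation on the rat build rn4. The probe of Apoa2 lies at chr13:87115432-87115491 (plus strand), that of Apob at chr6:31547488-31547547 (plus strand) and that of Apoe at chr1:79003795-79003854 (minus strand). Apoc1 (chr1:78996746-78996805) and Apoc2 (chr1:78979140-78979199) were read on the minus strand of the same chromosome as Apoe, within the known cluster of these genes. Apoa4 (chr8:49233335-49233394) and Apoa5 (chr8:49255236-49255295) were read on the plus strand of chromosome 8, where Apoa1 and Apoc3 also lie in RefSeq. The Mttp probe was placed at chr2:235613710-235613735 (minus strand), which covers 26 of its 60 bases, and the probes of Apoa1 and Apoc3 were not placed. Apoc1 had 10 spots per array and the other genes 2. The probes of Apoa1, Apoa2, Apob, Apoc3 and Apoe are shown because every value of these genes below, including the widest spread between rats, was read by these bases. They are written as the array's design gives them, 5′ to 3′, in the sense of the transcript and with no base marked.
Apoa1: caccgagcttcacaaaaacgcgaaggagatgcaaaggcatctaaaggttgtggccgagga
Apoa2: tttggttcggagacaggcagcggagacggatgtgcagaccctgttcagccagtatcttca
Apob: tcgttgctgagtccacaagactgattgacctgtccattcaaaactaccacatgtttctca
Apoc3: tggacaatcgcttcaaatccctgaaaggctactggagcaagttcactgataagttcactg
Apoe: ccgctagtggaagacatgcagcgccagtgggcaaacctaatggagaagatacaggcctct

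None of the 10 genes differed between diets or between times after adjustment over the 19434 probes tested, and in each of the 4 comparisons the 2 groups overlapped for 10 of 10 genes. Groups that did not overlap were found for 0.756% of all probes for diet at 3 months, 0.767% for diet at 14 months, 0.515% for time on control diet and 2.26% for time on BASE-diet. The smallest adjusted p was 0.811 for diet at 3 months, 0.952 for diet at 14 months, 0.384 for time on control diet and 0.839 for time on BASE-diet (limma, Benjamini-Hochberg). No probe on the array passed that threshold in any of the 4 comparisons (0% called). That count over all probes moved with the arrays and the settings used: without CD 3 replicate 5 it was 93 for diet at 3 months and 205 for time on control diet, with array weights 99 for time on BASE-diet, and with the Cy5 channel alone 221 for diet at 3 months. None of the 10 genes was among them. At an unadjusted p under 0.05, 1 gene was called, Apoc1, in CD 14 against CD 3, and exact permutation tests of the 40 differences (10 genes in 4 comparisons) likewise gave 1 under 0.05, the same gene. Of the 40 differences, 34 were smaller than their own SE. In limma's moderated F test over the 4 groups, 0.0257% of probes passed after adjustment and none of the 10 genes did. No gene had an unadjusted F test p under 0.05, against 10.5% of all probes.

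**Figure D1:**
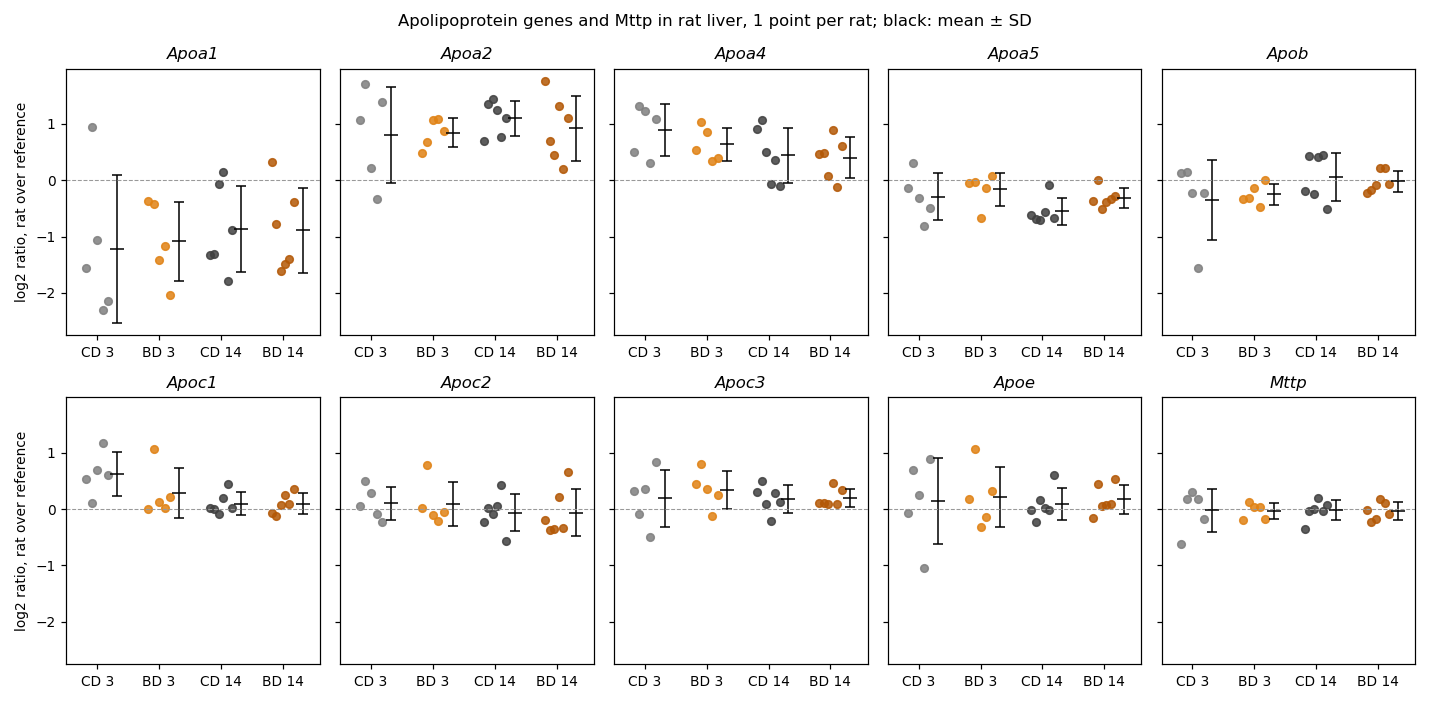
Log2 ratio of rat over reference RNA for each of the 10 genes, by group. Each point is 1 rat, the black bar is the mean with the SD (n = 5 for CD 3 and BD 3, n = 6 for CD 14 and BD 14), and the dashed line is the reference. The groups overlap in every panel, Apoa1 spans -2.31 to 0.95, and Mttp stays within -0.61 to 0.30.

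Apob encodes the structural protein of VLDL and, in rat liver, is edited to yield both of its forms. The log2 ratio of Apob in the CD 3 rats was 0.13, 0.14, -0.23, -1.56 and -0.23, and in the BD 3 rats -0.34, -0.31, -0.14, -0.48 and 0.0022. At 14 months it ran from -0.52 to 0.45 on control diet (median 0.11) and from -0.23 to 0.22 on BASE-diet (median -0.07). The rat at -1.56, CD 3 replicate 4, lay apart from the rest of its group, and the other 21 rats fell within -0.52 to 0.45. The difference of CD 14 from CD 3 was 0.41 (SE 0.26) with that rat and 0.11 without it. The diet difference was 0.10 (SE 0.27) at 3 months, and -0.21 without the same rat, and it was -0.08 (SE 0.25) at 14 months. With slide as a block the sign turned for CD 14 against CD 3 (-0.27), for BD 14 against BD 3 (-0.25, from 0.23) and for diet at 3 months (-0.47), and diet at 14 months was -0.45, none past the unadjusted threshold. On the 1 slide that held both groups, CD 14 against CD 3 was -0.29 and BD 3 against CD 3 was -0.46.

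Mttp had the narrowest spread of the 10 genes in the log2 ratio, though the widest in the centred Cy5 signal alone. Its log2 ratio in the CD 3 rats was -0.61, 0.17, 0.30, 0.19 and -0.17, and in the BD 3 rats -0.19, 0.12, 0.03, 0.03 and -0.17. At 14 months it ran from -0.35 to 0.19 on control diet and from -0.22 to 0.17 on BASE-diet. The 4 group means lay between -0.04 and -0.02, and the pooled SD within groups was 0.23, smaller than in all but 5.85% of the probes tested. The difference of BD 3 from CD 3 was -0.01 (0.04 without CD 3 replicate 4), with a 95% interval of -0.37 to 0.35, and that of BD 14 from CD 14 was -0.02, with an interval of -0.34 to 0.31. With slide as a block, however, BD 3 lay above CD 3 by 0.49 and passed the unadjusted threshold of 0.05, in a fit in which the median probe was also higher by 0.15. On the slide that held both groups, the 2 BD 3 arrays lay 0.58 above the only CD 3 array, which was that of CD 3 replicate 1, the lowest Mttp value of all rats.

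Apoa1, the main protein of HDL and an activator of the cholesterol esterifying enzyme in plasma, varied most in the log2 ratio. Its log2 ratio in the CD 3 rats was -1.55, 0.95, -1.07, -2.31 and -2.14, and in the BD 3 rats -0.37, -0.42, -1.42, -1.17 and -2.04. At 14 months it ran from -1.79 to 0.14 on control diet (median -1.10) and from -1.60 to 0.33 on BASE-diet (median -1.09). Apoa1 was below the reference on 19 of 22 arrays, with a mean of -1.005 ± 0.85 (SD, n = 22). The 3 rats above the reference came from CD 3, CD 14 and BD 14. The pooled SD of 0.90 was wider than in 89.6% of the probes tested. The 95% interval of the diet difference ran from -0.97 to 1.25 at 3 months and from -1.03 to 1.00 at 14 months. Differences close to 2-fold in either direction were therefore not excluded by these arrays. Without CD 3 replicate 4 the diet difference at 3 months went from 0.14 to -0.13. The difference of CD 14 from CD 3 then went from 0.35 to 0.08. Without CD 3 replicate 2, the only CD 3 rat above the reference, these differences were 0.68 and 0.90. With slide as a block they were 0.96 and 1.52, and none of these passed the unadjusted threshold.

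Apoa2, the second protein of HDL, was above the reference on 21 of 22 arrays. Its mean and SD were 0.81 ± 0.85 over the 5 CD 3 rats, 0.84 ± 0.26 over the 5 BD 3 rats, 1.10 ± 0.31 over the 6 CD 14 rats and 0.92 ± 0.58 over the 6 BD 14 rats. The diet difference at 14 months was -0.18 (SE 0.31, adjusted p = 0.96), inside the spread between rats. Without CD 3 replicate 4 the diet difference of Apoa2 at 3 months went from 0.03 to -0.25. Its difference of CD 14 from CD 3 then went from 0.29 to 0.0079. Without CD 3 replicate 2 these differences were 0.26 and 0.52, and with slide as a block -0.47 and -0.30. Apoa1 and Apoa2 thus lay on opposite sides of the reference in most rats, with the reservation on dyes given above.

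Apoa4, a lipid-responsive apolipoprotein of liver and intestine, was highest in CD 3. Its log2 ratio was 0.50, 1.32, 1.23, 0.30 and 1.09 in the CD 3 rats, and 0.54, 1.04, 0.85, 0.34 and 0.40 in the BD 3 rats. At 14 months it ran from -0.11 to 1.06 on control diet (median 0.43) and from -0.13 to 0.89 on BASE-diet (median 0.47). The order of the means was CD 3, BD 3, CD 14 and BD 14, and no 2 neighbours in this order differed beyond the spread between rats. CD 14 was below CD 3 (log2 difference -0.45, SE 0.25, adjusted p = 0.573). This difference was -0.59 without CD 3 replicate 4, -0.57 without CD 14 replicate 2, and -0.64 without the 2 arrays that held most non-uniform spots, and in these 3 fits it passed the unadjusted threshold. It was -0.34 without CD 3 replicate 2 and with slide as a block, and did not pass, and -1.19 on the 1 slide that held both groups, 1 array of each. The differences were -0.26 (SE 0.26) for BD 3 against CD 3, but 0.28 on the slide that held both, and -0.24 (SE 0.25) for BD 14 against BD 3, with adjusted p of 0.895 and 0.839.

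Apoa5, which promotes the clearance of triglyceride from plasma, was below the reference on 19 of 22 arrays. Its mean and SD were -0.29 ± 0.41 over the CD 3 rats (5), -0.17 ± 0.29 over the BD 3 rats (5), -0.55 ± 0.24 over the CD 14 rats (6) and -0.31 ± 0.17 over the BD 14 rats (6). BD 14 was above CD 14 by 0.24 (SE 0.18, adjusted p = 0.952), the largest diet difference among the 10 genes at 14 months, and on the slide that held all 6 BD 14 rats and 2 of the CD 14 rats it was 0.01. CD 14 differed from CD 3 by -0.26 (SE 0.19, adjusted p = 0.696), by -0.39 with the Cy5 channel alone or without CD 3 replicate 4, where it passed the unadjusted threshold, and by -0.11 without CD 3 replicate 2. BD 3 differed from CD 3 by 0.13, and by -0.0031 without CD 3 replicate 4.

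Apoc1, which inhibits cholesteryl ester transfer and the uptake of remnant particles, gave the only unadjusted call. Its log2 ratio was 0.53, 0.10, 0.69, 1.17 and 0.61 in the CD 3 rats and 0.0049, 1.07, 0.13, 0.010 and 0.21 in the BD 3 rats. At 14 months it ran from -0.10 to 0.45 on control diet (median 0.02) and from -0.13 to 0.36 on BASE-diet (median 0.08). Of the CD 3 rats, 4 lay above all CD 14 rats, and the fifth, at 0.10, lay among them. CD 14 was 0.696 times CD 3 (log2 difference -0.52, SE 0.20, 95% interval -0.95 to -0.10, limma, adjusted p = 0.384). An exact two-sided permutation test of the same difference gave p = 0.0173. In this comparison 10.1% of all probes had an unadjusted p under 0.05, 3.29% with a lower value. The call was lost without CD 3 replicate 4 (-0.38), with slide as a block (-0.37) and with the Cy5 channel alone (-0.16). The mean log2 Cy5 signal of Apoc1, not scaled between arrays, was 17.52 in CD 3, 17.44 in CD 14 and 17.64 in BD 3. That of the Cy3 channel, the reference, was 16.90, 17.34 and 17.36, so the lower ratios went with a higher Cy3 signal. On the 1 slide that held both groups, 1 array of each, the difference was -0.59.

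Apoc1 is also made by macrophages, and markers of the liver's own macrophages, the Kupffer cells, differed in the same comparison in the opposite direction. Of 7 Kupffer cell markers, 5 had an unadjusted p under 0.05 and were higher in CD 14, beside 10.1% of all probes in either direction. Among the 5 were Clec4f (log2 difference 1.34) and Vsig4 (1.71). Higher too at that level were 2 of 10 hepatocyte, 1 of 4 leukocyte, 1 of 5 endothelial and 1 of 7 stellate cell markers. No small intestine, red cell or bile duct marker was. Over the CD 3 rats the mean log2 ratio of the 7 Kupffer cell markers ran from -2.88 to -0.62. Over the CD 14 rats it ran from -1.20 to -0.05, and 5 of the 7 were above background on all arrays. Their part in the result was not tested, and fewer cells of a type cannot be told apart from less RNA per cell in whole liver.

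The Apoc1 values of the BD 3 rats held 1 rat, replicate 2, at 1.07 and 4 rats at or under 0.21. The mean of BD 3 lay below that of CD 3 (log2 difference -0.33, SE 0.21, adjusted p = 0.811), in a comparison in which 7.11% of probes had an unadjusted p under 0.05. Without BD 3 replicate 2 the difference was -0.53, and without CD 3 replicate 2 it was -0.46, and both then passed the unadjusted threshold. It shrank to -0.20 without CD 3 replicate 4, to -0.16 with slide as a block, to -0.09 with the Cy5 channel alone and to 0.0086 on the slide that held both groups. The difference of BD 14 from BD 3 was -0.19 (SE 0.20, adjusted p = 0.841) and became 0.0076 without the same BD 3 rat. At 14 months the 2 diets differed by -0.0016 in Apoc1, with a 95% interval of -0.41 to 0.40.

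Apoc2, the cofactor of lipoprotein lipase, and Apoc3, which inhibits the lipase and the uptake of remnants, have opposite roles in the clearance of triglyceride. The log2 ratio of Apoc2 ran from -0.56 to 0.77 over the 22 rats, with 10 above the reference, and that of Apoc3 from -0.50 to 0.84, with 18 above it. The 4 group means of Apoc2 lay between -0.06 and 0.10, and its diet differences were -0.01 (SE 0.24) at 3 months and 0.00078 (SE 0.22) at 14 months. The 4 group means of Apoc3 lay between 0.18 and 0.34, and its diet differences were 0.15 (SE 0.22) and 0.01 (SE 0.20). Their time differences lay between -0.16 and -0.0053 on both diets, each smaller than its SE. Without CD 3 replicate 4 the diet difference of Apoc3 at 3 months was -0.02. Its difference of CD 14 from CD 3 then went from -0.0053 to -0.18, and on the 1 slide that held both groups it was -0.71. Without CD 3 replicate 5, the highest CD 3 rat for Apoc3, these differences were 0.32 and 0.16.

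Apoe, the ligand by which remnant particles bind hepatic receptors, had a log2 ratio from -1.04 to 1.06 over the 22 rats, with 14 above the reference. Its range was 1.94 in CD 3 and 1.38 in BD 3, and 0.82 and 0.68 in CD 14 and BD 14. The mean and SD were 0.15 ± 0.76 and 0.21 ± 0.53 at 3 months (CD 3 and BD 3, 5 rats each), and 0.09 ± 0.28 and 0.17 ± 0.26 at 14 months (CD 14 and BD 14, 6 rats each). Both diet differences were under 0.09 and all 4 differences were smaller than their SE. Without CD 3 replicate 4, the lowest rat at -1.04, the diet difference at 3 months went from 0.07 to -0.23. The difference of CD 14 from CD 3 then went from -0.06 to -0.36. Without CD 3 replicate 5, the highest CD 3 rat, these differences were 0.25 and 0.13.

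**Figure D2:**
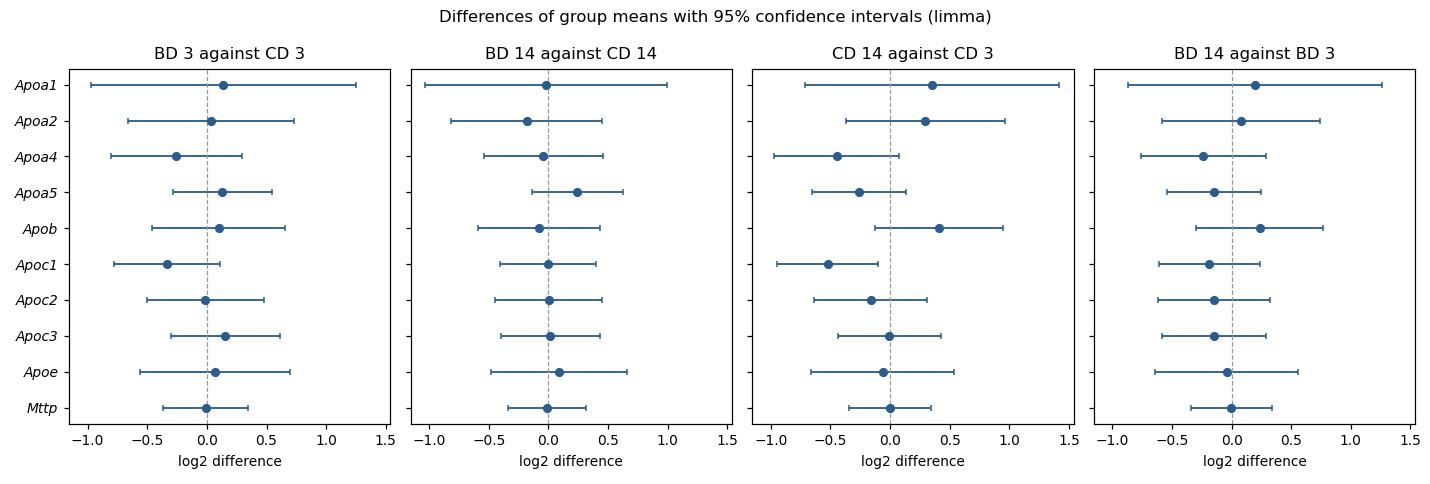
Log2 differences of group means for the 10 genes in the 4 comparisons, with 95% confidence intervals from limma. The interval leaves out 0 for Apoc1 in CD 14 against CD 3 (-0.95 to -0.10) and covers it for the remaining 39, and the intervals of Apoa1 are the widest.

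At 14 months the median size of the diet difference was 0.03 over the 10 genes and 0.20 over all probes, and at 3 months it was 0.11 and 0.24. With slide as a block these became 0.17 and 0.30 at 14 months and 0.34 and 0.42 at 3 months, and with the Cy5 channel alone the 10 genes were at 0.18 at 14 months, beside 0.26 over all probes. For time the medians were 0.28 and 0.25 on control diet and 0.15 and 0.24 on BASE-diet. With another background correction and normalization (normexp and loess) they were 0.25 and 0.16 on control diet and 0.17 and 0.13 on BASE-diet. Which was larger on BASE-diet thus depended on the processing. At 3 months 6 genes were higher on BASE-diet and 4 lower, and at 14 months 4 were higher and 6 lower, with 4.6% of all probes past the unadjusted threshold at 14 months and 0 of the 10 genes. For time on BASE-diet 3 genes were higher at 14 months and 7 lower, with 7.44% of probes past that threshold and 0 of the 10 genes.

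The 95% intervals given here are those of the main fit, which did not take slide into account. The 95% interval lay inside 2-fold in either direction for 9 of 10 genes in each of the 4 comparisons, Apoa1 being the exception. It lay inside 1.5-fold for 5 genes in the diet comparison at 14 months and for 3 genes at 3 months. Some differences with slide as a block lay outside these intervals, such as Mttp in BD 3 against CD 3 (0.49) and Apob in CD 14 against CD 3 (-0.27). The intervals thus bound the differences only where slide is left aside. The diet difference at 14 months minus that at 3 months ran from -0.22 to 0.33 over the 10 genes, none past the unadjusted threshold, which 4.8% of probes passed.

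The spread between rats was many times that between spots of the same array. The SD between spots of an array was 0.03 to 0.07 on the log2 scale, and the pooled SD between rats of a group was 4.72 times (Apoc3) to 31.1 times (Apoa1) as wide. Both channels were read after Lowess dye normalization, which draws on both signals of an array. The Cy3 values are thus not those of the reference RNA alone. The log2 Cy3 signal, centred on the median probe of each array, varied between arrays with an SD of 0.36 (Apoa2) to 0.58 (Apoa1). For 5 of the 10 genes this was wider than the SD of the rats' own Cy5 signal. For Apoe the SD was 0.56 in Cy3 and 0.28 in Cy5, and for Mttp it was 0.40 in Cy3 and 0.58 in Cy5. The ratio varied less than either channel for 6 genes and more than both for Apoa1 and Apoa2. In 7 of the 10 genes the widest SD of the 4 groups was that of CD 3, the group whose share of spots above background ran from 52.4% to 93.6%.

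**Figure D3:**
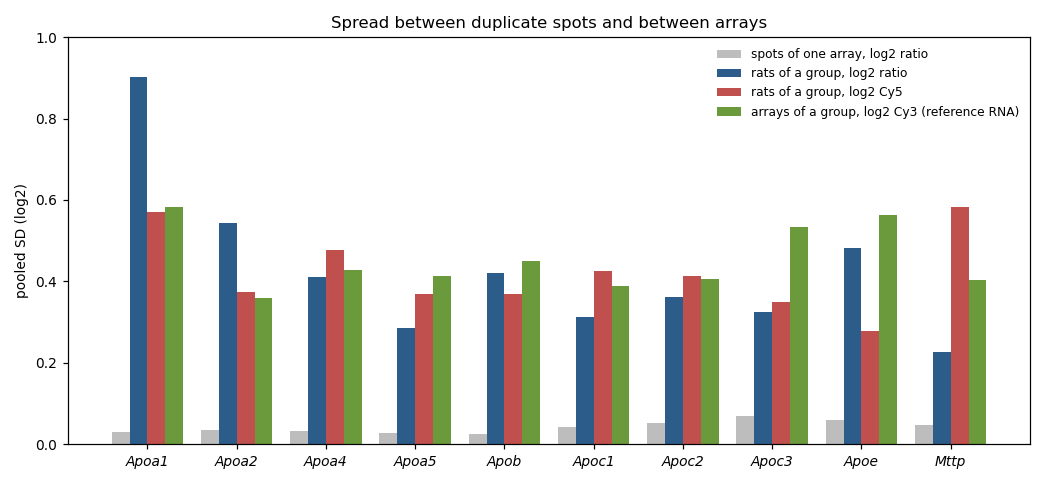
Pooled SD (log2) within groups for the 10 genes. The bars give, per gene, the SD between spots of 1 array and between rats in the log2 ratio. The other bars give the SD between rats in the centred Cy5 signal and between arrays in the centred Cy3 (reference) signal, both after dye normalization. The ratio of Apoa1 reaches 0.90, and the reference channel reaches 0.36 to 0.58.

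Apoa1, Apoc3, Apoa4 and Apoa5 are neighbours in the genome, as are Apoe, Apoc1 and Apoc2, which allowed 9 pairs of neighbours to be set beside the other 36 pairs. Over the 22 arrays, after the group means were taken out, Pearson's r had a median of 0.22 over the neighbours and of 0.27 over the other pairs, as a description, since all values of an array share its hybridisation and depth. The highest r was that of neighbours, Apoa4 with Apoc3 (r = 0.61, Spearman's rho = 0.63), followed by Apoc3 with Apoe (0.57) and Apoa5 with Apob (0.54). The lowest was that of Apoa2 with Apoc1 (-0.47). Without CD 3 replicate 4 the medians were 0.27 and 0.14, and r of Apoa4 with Apoc3 was 0.54. The highest r was then that of Apoc1 with Apoc2 (0.59), the lowest that of the neighbours Apoa1 with Apoc3 (-0.36), and Apoc3 with Apoe and Apoa5 with Apob were at 0.39 and 0.36.

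**Figure D4:**
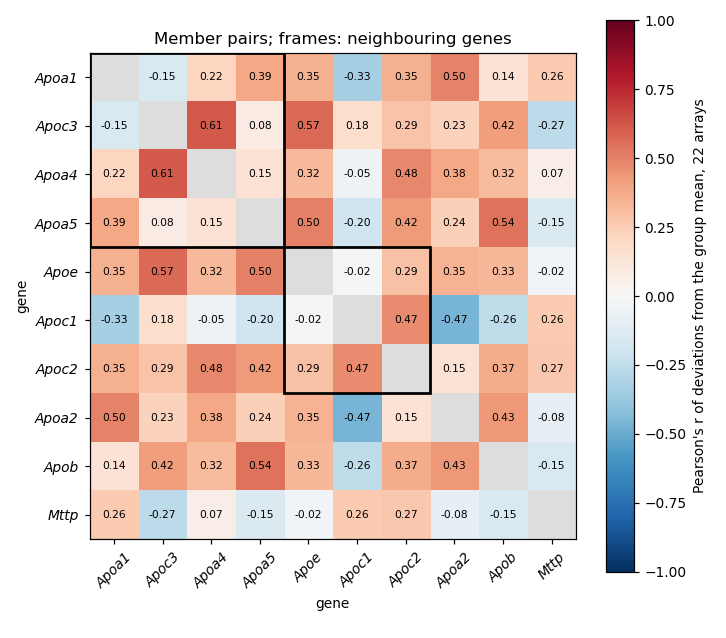
Pearson's r between the genes over 22 arrays, after the group means were taken out. Both axes list the genes, black frames enclose the 2 sets of genomic neighbours, and the colour scale runs from -1 to 1. Apoa4 with Apoc3 has the highest value (0.61) and Apoa2 with Apoc1 the lowest (-0.47).

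Over all 22 arrays, the gene most like Apob was Dstn (r = 0.91), followed by Tram1 (0.89) and Xpo1 (0.87). Spearman's rho of these with Apob was 0.79, 0.61 and 0.71, and Apob held 1 rat far below the rest, CD 3 replicate 4. Apoa1 was most like Scfd2 (0.85), Tor3a (0.84) and the transcript listed as XM_228802 (0.82). Apoc1 was most like Pdzd7 (0.86) and Nr2f6 (0.83), and Apoc3 had Plg, plasminogen of hepatocytes, as its second (0.77). Kat3 (0.83) and Cpn2 (0.79) were the most like Apoa5, Hspb2 (0.82) the most like Apoc2, Serpina6 (0.75) the most like Apoa2, and Afg3l2 (0.69) the second for Apoa4. For Apoe the highest r was 0.77, with a transcript listed without a gene symbol. None of the 10 genes had another of them among its 3 most alike. These r are the highest among 17079 gene names over 22 values and are a description only.

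The genes that act with the apolipoproteins were read from 5 lists, and none of their genes passed after adjustment in any of the 4 comparisons. The genes named here had an unadjusted p under 0.05, a level that 7.11% of all probes reached for diet at 3 months, 4.6% for diet at 14 months, 10.1% for time on control diet and 7.44% for time on BASE-diet. Values in brackets are log2 differences, followed where given by the number of 35 other settings in which the difference stayed past that threshold. In the list of other apolipoproteins 13 of 15 genes were tested, with 1 unadjusted p under 0.05 in each comparison but BD 3 against CD 3, where there was none. Apom, the HDL apolipoprotein that carries sphingosine-1-phosphate, was lower in BD 14 than in CD 14 (log2 difference -0.48, SE 0.19, adjusted p = 0.952). Its log2 ratio ran from -0.33 to 0.28 in CD 14 and from -0.87 to -0.31 in BD 14, and the difference was past the unadjusted threshold in all 35 other settings examined. Apobec1, the enzyme that edits Apob mRNA, was higher in CD 14 than in CD 3 (0.82, 30 of 35), but at 0.64 without CD 3 replicate 1 and 0.50 with slide as a block it did not pass. Apoc4, the neighbour of Apoc1 and Apoc2, was lower in BD 14 than in BD 3 (-0.43, 14 of 35), and by -0.22 without BD 3 replicate 2.

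Of the 24 genes of lipoprotein assembly and secretion 21 were tested. At 3 months 2 were higher and 1 lower on BASE-diet at an unadjusted p under 0.05, where 7.11% of all probes passed, and at 14 months 1 was higher and 1 lower, where 4.6% passed. Cidec, a protein of lipid droplet fusion, was higher on BASE-diet at both times, by 1.05 at 3 months (SE 0.31, adjusted p = 0.4) and by 1.26 at 14 months (SE 0.28, adjusted p = 0.397). Its log2 ratio ran from -1.57 to 0.11 in CD 3 and from 0.0087 to 1.01 in BD 3, and from -1.01 to -0.01 in CD 14 and from -0.07 to 1.28 in BD 14. Both differences were past the unadjusted threshold in all 35 other settings examined. Sar1b, a GTPase of the vesicles that carry lipoproteins out of the endoplasmic reticulum, was lower in BD 3 than in CD 3 (-0.64, 34 of 35) and in CD 14 than in CD 3 (-0.49, 28 of 35). The first was lost with slide as a block (-0.46), and the second, among others, without CD 3 replicate 4 (-0.38). Surf4, a cargo receptor of the same step, was lower in BD 14 than in CD 14 (-0.34, 25 of 35), but not with the Cy5 channel alone (0.04).

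Of 13 lipoprotein receptors and their partners 11 were tested. Cd36, a scavenger receptor and fatty acid transporter, was higher at 14 than at 3 months on control diet (2.32, 34 of 35) and on BASE-diet (1.71, 33 of 35), and with slide as a block both were lost (1.21 and 0.76). On BASE-diet the difference of Cd36 was also lost without BD 3 replicate 2 (1.16). Sdc1, a proteoglycan that binds remnants, was higher at 14 months on BASE-diet (0.65, 34 of 35). Lrp2 was lower in BD 3 than in CD 3 (-0.59, 26 of 35), with -0.38 under slide as a block and -0.39 without BD 3 replicate 4. Among 12 tested genes of plasma lipases and lipoprotein remodelling, the cholesterol transporter genes Abcg1 (1.58, 34 of 35) and Abcg5 (-1.54, 33 of 35) differed in opposite directions in CD 14 against CD 3, and Abcg1 fell to 0.47 with slide as a block. Lcat, whose enzyme Apoa1 activates, was higher in BD 3 than in CD 3 (0.38, 24 of 35) and lower in BD 14 than in BD 3 (-0.36, 27 of 35). With slide as a block these were 0.11 and -0.13, and the first was 0.08 with the Cy5 channel alone.

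Of 28 transcription factors of apolipoprotein genes 25 were tested. Foxa3, a hepatocyte forkhead factor, was higher in BD 3 (1.82, 34 of 35) and in CD 14 (1.21, 28 of 35) than in CD 3. With slide as a block these were 0.42 and 0.41, and without CD 3 replicate 4 the second was 0.64, none past the threshold. Hnf4a, which acts on many apolipoprotein genes and on Mttp, was higher in BD 14 than in CD 14 (0.77, SE 0.29, 33 of 35), but at 0.33 with the Cy5 channel alone and 0.37 with slide as a block it did not pass. Nr0b2, a repressor of that factor, was higher in the same comparison (1.05, SE 0.43, 32 of 35). Nr1i3 was lower at 14 than at 3 months on control diet (-1.18, 28 of 35) and on BASE-diet (-1.22, 32 of 35). Nr1d1, a repressor of the clock, was higher at 14 months on BASE-diet (0.87, 33 of 35) and on control diet (0.70, a value added after it was seen). The comparisons of CD 3 with BD 3 and with CD 14 share the CD 3 rats. The median difference of the 25 genes was 0.15 at 3 months and 0.16 at 14 months for diet, beside 0.03 and 0.05 over all probes. In the other lists these medians ran from 0.02 to 0.21 at 3 months and from 0.12 to 0.21 at 14 months. For time the median of the 25 genes was -0.11 on control diet and -0.06 on BASE-diet, beside 0.03 and 0.07 over all probes.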

How the data were processed

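Each rat's liver RNA and a common reference were hybridised to 1 two-colour array. The intensity values deposited by the authors are the output of Agilent Feature Extraction (version 10.7.3.1 per the labels, 10.10.1.1 per the file headers), after background subtraction and Lowess dye normalization. The deposited log10 values give Cy5 over Cy3 of these processed signals. A deposited table of selected entries holds none of the 10 genes and was not used.

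Log10 ratios were turned to log2. Controls and spots marked non-uniform were dropped, spots of a probe were averaged and arrays were not scaled. Testing required a Cy5 signal well over background for 0.5 or more of a probe's spots on all arrays of some group (19434 of 30367 probes). The median residual SD was 0.53. Differences were tested with limma 3.58.1 in R 4.3.3, as 4 group means with eBayes and Benjamini-Hochberg adjustment over all tested probes (threshold 0.05), after a test on simulated data. Tables were made with pandas 2.3.3, numpy 2.4.6 and scipy 1.17.1 and pictures with matplotlib 3.10.9, in Python 3.11.15. The number of arrays limits the precision.

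The genes and lists were chosen with earlier results of these data known. The naming rule took all 10 genes, the 2 list genes of smallest p in each comparison, and the 3 most alike of each gene by r. Of the list genes those with p under 0.05 are printed, and of the alike genes some have no symbol. Some genes that the rule takes are not reported here. A p is printed for the 2 genes of smallest p in each comparison and for those under 0.05 in another setting, Mttp excepted, and Apoc1's difference was also tested by exact permutation. Alternatives were another background correction and normalization, the Cy5 channel alone, centring, other filters, weights and blocks. They also took in the methods' ANOVA with Tukey's test and leaving out each array. The Cy5 channel alone was the processed signal after the same dye normalization.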

Additional observations from a re-analysis of the deposited data

Results flagged for a closer look

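Within groups, 5 of the 40 sets of values (10 genes in 4 groups) held a rat whose gap to the nearest other rat took up more of the group's range than Dixon's 95% criterion allows. Chance alone gives about 1 in 20. Apob was at -1.56 in CD 3 replicate 4, the array with the lowest share of spots above background. Apoc1 was at 1.07 and Apoc2 at 0.77 in the same rat, BD 3 replicate 2. Apoa5 was at -0.67 in BD 3 replicate 3 and at -0.082 in CD 14 replicate 5.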

How the results depend on the processing

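Adjusted calls stayed at 0 of the 10 genes in every comparison and setting run. Unadjusted calls changed as follows. In CD 14 against CD 3 there were 0 with the methods' Tukey test and with slide as a block, 2 without the 2 arrays that held most non-uniform spots (an alternative chosen after seeing the data), and 1 to 2 when 1 array was left out. In BD 3 against CD 3 and in the interaction there was 1 with slide as a block, Mttp in both, and 0 to 1 when 1 array was left out. The F test gave 1 with the Cy5 channel alone, the strict filter, normexp and loess, median-centred arrays or the methods' ANOVA, and 0 to 1 when 1 array was left out. Of the signs given with a p, that of Apoa4 in BD 14 against BD 3 turned with slide as a block (0.27). That of Surf4 in BD 14 against CD 14 turned with the Cy5 channel alone (0.041). In BD 3 against CD 3, those of Apoa4 (0.28) and Apoc1 (0.0086) turned on the 1 slide that held both groups. The sign of Mttp in that comparison, given without a p, turned with slide as a block (0.49), with normexp and loess (0.049) and on that slide (0.58). When 1 array was left out, Mttp in BD 3 against CD 3 ran from -0.16 to 0.071 and Apoc1 in BD 14 against BD 3 from -0.26 to 0.0076. Of the 40 differences of the 10 genes, 7 kept their sign in all settings, and the 33 that did not were no larger than 0.41. The cause of these changes was not tested. Among the pathway genes, 3 passed after adjustment in BD 3 against CD 3 with the Cy5 channel alone, where 221 of all probes did, and 0 to 1 in CD 14 against CD 3 when 1 array was left out. Slide as a block moved the median probe to 0.15 in BD 3 against CD 3 and to 0.14 in CD 14 against CD 3. Replicate numbers did not pair the rats (median r of same-numbered arrays -0.01), and with the replicate block Apoc1 in CD 14 against CD 3 was -0.54. No array had over 5% non-uniform spots, so that alternative was not run. The deposited table of selected entries lists none of the genes, and with 1 probe per gene and no saturated spot the brightest unsaturated probe changes nothing. No slide held both BD 3 and BD 14. The number of rats per group limits these results, while all 10 genes were well above background in both channels on every array.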
